A study of Mus musculus with 6 samples.

Results

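The genes described here are 39 interferon-stimulated genes and regulators of the interferon response, taken by symbol from a table of 20409 genes measured by RNA-Seq in immortalized mouse lung ECs (LECs). All 39 have a value, and 36 of them, those averaging 1 CPM (counts scaled to a common total of reads) or more over all libraries, were among the 12837 genes tested. The others, *Mx1*, *Oas2* and *Zbp1*, are given as values only, apart from an alternative fit with no filter. *Mx1* and *Oas2* rested on as few as 3 and 7 reads in a library, while *Zbp1* had at least 37 and missed the filter. There were 3 control libraries, from *Atgl* fl/fl cells, and 3 *Atgl* ECKO libraries, from littermates that also carry *Cdh5*-Cre, in which Cre recombinase under the VE-cadherin promoter deletes *Atgl* (gene symbol *Pnpla2*, adipose triglyceride lipase) in ECs. Both genotypes were selected by CD31, immortalized with the middle T antigen and grown in EGM-2 medium with 20% FBS, penicillin/streptomycin and glutamine, and none of the cells were treated, so no interferon was added. Ages were not stated. Whether replicates stand for separate mice, cultures or preparations of 1 culture is open in the labels, and a p-value therefore reflects no more than how much these libraries differed, which can be purely technical.

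Interferons are secreted proteins that warn cells of infection. Type I interferons bind a receptor made of IFNAR1 and IFNAR2, whose kinases JAK1 and TYK2 phosphorylate STAT factors such as STAT2. With IRF9, STAT2 is part of a complex that enters the nucleus and binds a short element, the interferon-stimulated response element (ISRE), near the start of genes that block viral entry, RNA translation and release. Sensors of foreign nucleic acid start the response through IRF3 and IRF7, and many sensors and factors of the pathway are themselves interferon-stimulated, as is USP18, which restrains the receptor. Endothelium is known to hold a low level of these transcripts without infection.

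The labels were first checked by the targeted gene, and *Pnpla2* was 27.98 ± 1.91 CPM in control LECs and 9.40 ± 0.494 CPM in *Atgl* ECKO LECs (SD, n = 3 each), which is 33.6% of the control mean. Endothelial markers were all present, at a summed 5106 to 5327 CPM in the controls and 5280 to 5625 CPM in *Atgl* ECKO libraries. Of 10 leukocyte markers 5 had a value, with sums of 20.9 to 23.6 CPM against 63.9 to 75.4 CPM, nearly all of it *Cd68* (16.9 to 19.6 CPM against 60.4 to 71.1 CPM), while *Laptm5* did not pass the test (2.46 to 2.91 CPM against 2.55 to 3.40 CPM) and *Csf1r* was under 1 CPM. Fibroblast and smooth muscle markers summed to 158 to 176.9 CPM against 107 to 127 CPM, nearly all of it *Acta2* (154 to 174 CPM against 104 to 124 CPM), while *Myh11* (1.06 to 1.38 CPM against 1.56 to 1.61 CPM) and *Pdgfrb* (0.0720 to 0.317 CPM against 0.632 to 0.795 CPM) stood lower in the controls without a call. Epithelial markers, led by *Krt18* with 4 others under 0.1 CPM in every library, summed to 14.9 to 16.1 CPM against 36.2 to 37.6 CPM, and mesothelial markers to under 0.2 CPM throughout. Their part in the interferon results was not tested. The 4 Y-linked genes examined summed to 172 to 179 CPM in control and 1.90 to 2.29 CPM in *Atgl* ECKO libraries. *Xist*, which marks female cells, was at 0.0291 to 0.0540 CPM in control and 0.0325 to 0.0476 CPM in *Atgl* ECKO libraries, a trace in both, and the study used male mice. Genotype and the difference in Y-linked transcripts cannot be told apart in any comparison here. By the step between the lowest values, 1 CPM rests on 55.6 to 69.0 reads.

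One library stood apart for these genes. Control replicate 1 held the lowest control value for 33 of the 36 tested members, against 26.9% of all tested genes, and the exceptions were *Ifnar1*, *Ifnar2* and *Irf3*. It lay at least 1.2-fold below both other controls, a limit chosen after the values were seen, for 27 of 36 members (75.0%) and for 1.86% of all tested genes. Members whose result turned on it are therefore given with and without it, and the plot with and without control replicate 1 shows all 36. The library was singled out from these same values. Leaving out the lowest control raises the control mean, so for these 33 members the direction of the move was fixed in advance. Values and p-values without it describe that dependence and are no independent support for a decrease.

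The promoters show the element through which the response acts. RefSeq promoters (GRCm38.p6) from 250 bases before to 50 bases after the gene start were matched for 30 of the 39 members. The ISRE core, spelled GAAANNGAAA and searched on both strands, was found in 13 of these 30 genes (43.3%), against 3.99% of 27025 genes with a promoter in the reference. It was present in 10 of 17 members that were lower in *Atgl* ECKO LECs, in 1 of 7 that were higher and in 2 of 6 that did not pass the test. The higher members include the receptor genes *Ifnar1* and *Ifnar2* and the regulator *Irf3*, none of which holds the core. The groups thus differ in kind of gene as well as in call, and a link between the core and the call was not tested. The shorter interferon-γ-activated element (GAS), spelled TTCNNNGAA, also searched on both strands, occurred in 9 of 30 members (30.0%) against 9.55% of all genes. The 160 bases before the start are printed for 5 members, *Isg15* because it had one of the largest decreases, *Ifit1* and *Ifit3* because they went the other way from their neighbour *Ifit2*, and *Oas3* with *Oas1a* because these relatives changed in opposite directions. Each runs 5′ to 3′ on the strand of the gene, and capitals mark the ISRE core or its reverse complement.
Isg15 (chr4:156200819-156200978, minus strand): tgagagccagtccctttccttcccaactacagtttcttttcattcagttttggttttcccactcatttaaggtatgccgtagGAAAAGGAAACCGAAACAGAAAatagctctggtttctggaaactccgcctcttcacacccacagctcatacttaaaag
Ifit1 (chr19:34640729-34640888, plus strand): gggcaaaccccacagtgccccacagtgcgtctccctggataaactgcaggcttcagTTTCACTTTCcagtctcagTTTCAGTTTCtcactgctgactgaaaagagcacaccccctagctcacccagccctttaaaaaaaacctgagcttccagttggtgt
Ifit3 (chr19:34583369-34583528, plus strand): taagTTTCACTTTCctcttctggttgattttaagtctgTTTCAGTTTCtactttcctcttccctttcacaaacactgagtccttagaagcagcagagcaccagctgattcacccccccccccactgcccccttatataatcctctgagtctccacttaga
Oas3 (chr5:120777660-120777819, minus strand): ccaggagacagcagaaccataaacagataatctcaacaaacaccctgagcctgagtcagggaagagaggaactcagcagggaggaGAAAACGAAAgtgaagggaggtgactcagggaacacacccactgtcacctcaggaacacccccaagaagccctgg
Oas1a (chr5:120907526-120907685, minus strand): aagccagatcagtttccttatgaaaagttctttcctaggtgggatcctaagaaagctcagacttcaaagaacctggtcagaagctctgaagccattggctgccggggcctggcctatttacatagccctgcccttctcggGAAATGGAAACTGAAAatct

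*Isg15* carries 3 overlapping cores and *Oas1a* a pair of overlapping cores close to the start, whereas the cores of *Ifit1* and *Ifit3* stand apart and in the reverse orientation. In both promoters of *Ifit2*, and in those of *Oasl1*, *Oasl2* and *Ifi44*, these letters do not occur in the 160 bases before the start. A match is a description of letters and not a measured binding site, and *Oas3*, which was lower, and *Oas1a*, which was higher, both hold the core.

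Of the 36 tested members, 20 were lower and 7 were higher in *Atgl* ECKO than in control LECs (limma, Benjamini-Hochberg adjusted over all tested genes), while 9 did not pass the test. Among all 12837 tested genes 36.2% were lower and 34.2% were higher. The lower members were 55.6% and the higher members 19.4% of those tested, above and below the background. The members were chosen with earlier results of these data known, so these shares are a description and no independent evidence. The lower share was under the background in a pair of alternative fits, since with a robust prior 27.8% of members were lower against 36.2% of all genes, and with no moderation of the variances 22.2% against 31.7%. The median log2 fold change, taken as *Atgl* ECKO minus control on log2(CPM + 1), was -0.27 over the members and -0.01 over all genes. Genotypes did not overlap for 22 members, 15 lower and 7 higher, which at 22 of 36 is under the background of 73.1% of all genes without overlap. In the plot of members by library the open circles of control replicate 1 often sat beside the *Atgl* ECKO symbols while control replicates 2 and 3 sat to the right. In bulk RNA, fewer cells that carry a transcript and less of it in each cell cannot be told apart.

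**Figure D1:**
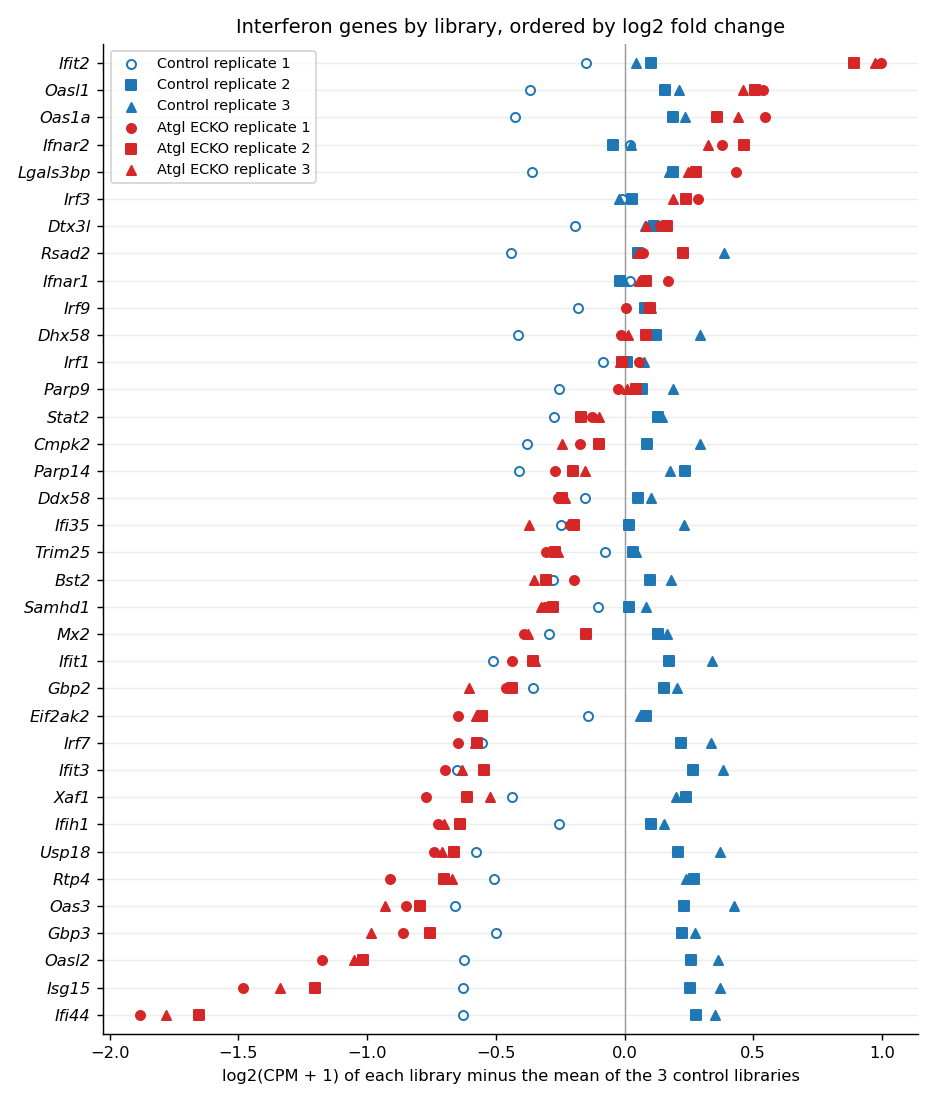
Each of the 36 tested members in each library, as log2(CPM + 1) minus the mean of the 3 control libraries, ordered by log2 fold change; blue marks control and red marks Atgl ECKO libraries, and marker shape gives the replicate. Control replicate 1 (open circles) is the lowest control for 33 members, and control replicates 2 and 3 both lie above all Atgl ECKO libraries for 25 members.

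The spread among the control libraries was wide for these genes and narrow in *Atgl* ECKO. The median coefficient of variation (CV, the SD as a percent of the mean) over the members was 22.0% in control and 4.18% in *Atgl* ECKO libraries, against 3.70% and 3.58% over all tested genes. The highest control value was a median 1.54 times the lowest, and in *Atgl* ECKO 1.09 times. Control CVs ran from 1.30% (*Ifnar1*) to 44.2% (*Oas3*), and the control CV exceeded the *Atgl* ECKO CV in 33 of 36 members, against 52.1% of all tested genes. The widest after *Oas3* were *Ifit3* (37.0%), *Isg15* (35.1%), *Ifi44* (34.1%), *Oasl2* (33.6%), *Usp18* (32.9%), *Irf7* (31.5%) and *Ifit1* (30.6%). The narrowest after *Ifnar1* were *Irf3* (1.93%), *Ifnar2* (2.64%), *Trim25* (4.61%), *Irf1* (5.96%), *Samhd1* (6.59%) and *Eif2ak2* (8.43%). Control replicate 3 was the highest control for 27 members (75%), against 43.1% of all tested genes. Control replicate 2 was the highest for 8 members (22.2%), the same share as over all tested genes (22.2%).

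**Figure D2:**
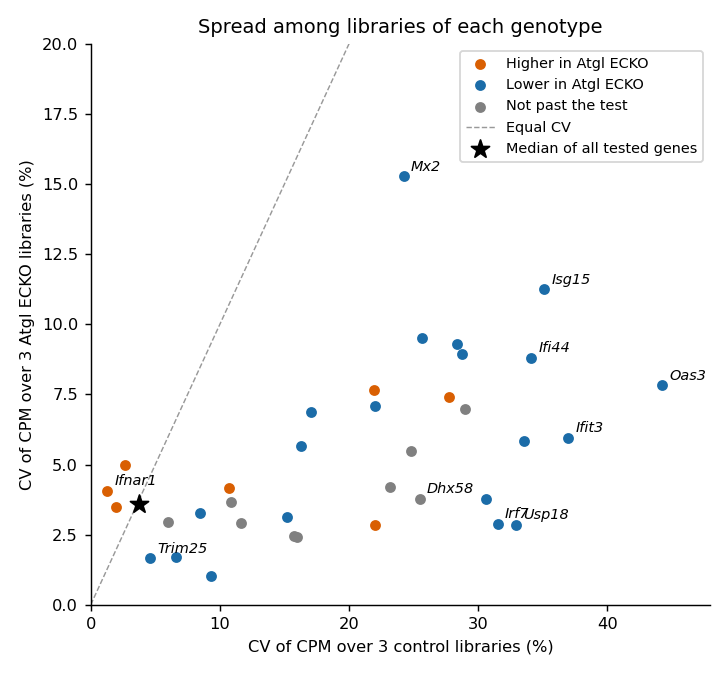
CV of CPM in percent over the 3 control libraries (horizontal) and over the 3 Atgl ECKO libraries (vertical) for the 36 tested members; colour gives the result of the test, the dashed line equal CVs and the star the median of all tested genes. All but 3 members lie below the line, and Oas3 lies farthest right at a control CV of 44.2%.

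Set against the *Atgl* ECKO libraries, control replicate 1 lay below their range for 17 members, within it for 4 and above it for 15. The other controls both lay above that range for 25 members, both below it for 7 and otherwise were mixed. Among the 10527 genes that averaged 5 CPM or more over all 6 libraries, the 100 with the widest control CV were listed. They included 23 of the 34 members that pass this limit and 23 of the 73 other interferon pathway genes that do. Control replicate 1 was the lowest control for 79 of the 100. The limit uses both genotypes, so it also lets in genes nearly absent from the controls. *Xlr*, with the widest control CV, was at 0.0001, 0.0001 and 0.0152 CPM in the controls. It counts among the 79 only through a tie.

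Both receptor subunits were higher in *Atgl* ECKO LECs, and they were among the members with the tightest controls. *Ifnar2*, which encodes the subunit that binds interferon with high affinity, was at 41.9, 40.03 and 42.0 CPM in control replicates 1, 2 and 3 and at 54.0, 57.3 and 51.9 CPM in *Atgl* ECKO replicates 1, 2 and 3. The groups were well apart, with a log2 fold change of 0.39 ± 0.04 (SE, adjusted p = 3.69e-07). *Ifnar1*, the partner subunit, was at 93.4, 91.0 and 92.0 CPM in the controls and 103.6, 97.7 and 95.9 CPM in *Atgl* ECKO libraries. The groups did not overlap but nearly met, and the log2 fold change was 0.10 ± 0.03 (SE, adjusted p = 0.0133), or 0.07 (adjusted p = 0.0821) without *Atgl* ECKO replicate 1. Both genes lie on chromosome 16, where the median log2 fold change of all genes of at least 5 CPM was 0.26, and relative to it *Ifnar1* was lower, by -0.16 (adjusted p = 7.69e-04). *Ifnar2* kept its higher call relative to it, but the median of both receptor genes went from 0.25 to -0.02. Whether a shift of the whole chromosome enters these values was not tested.

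**Figure D3:**
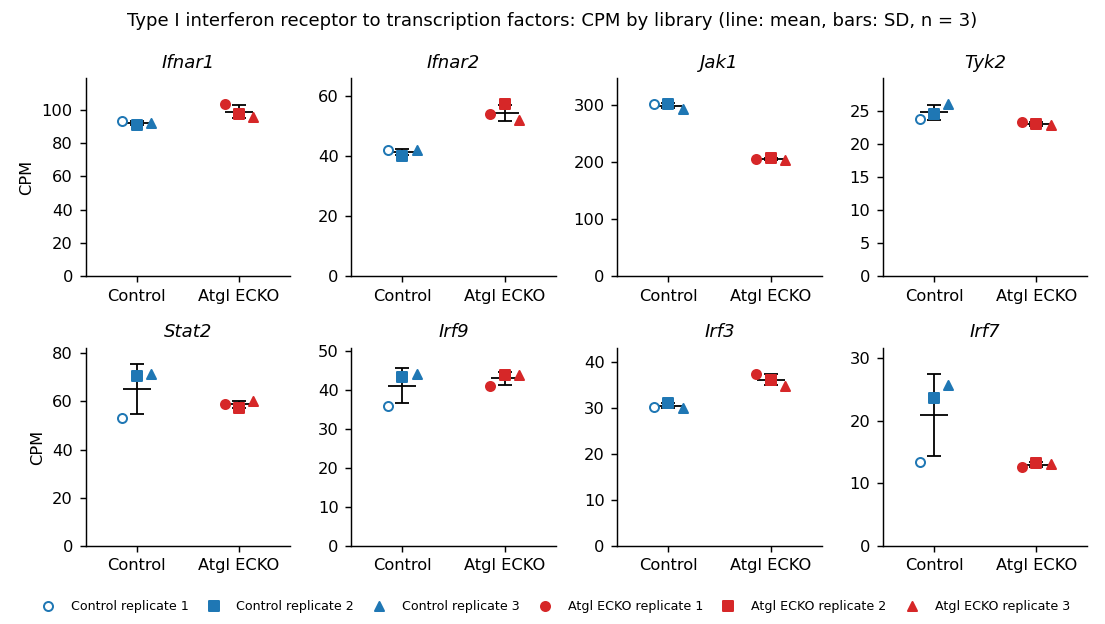
CPM in each library for the receptor subunits Ifnar1 and Ifnar2, the kinases Jak1 and Tyk2, and the transcription factors Stat2, Irf9, Irf3 and Irf7; the horizontal line is the mean and the bars the SD of 3 libraries, and each vertical axis starts at 0. The receptor subunits and Irf3 are higher and Jak1, Irf7 and, by little, Tyk2 lower in Atgl ECKO. Control replicate 1 (open circle) is the lowest control for Tyk2, Stat2, Irf9 and Irf7.

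Below the receptor, the kinase *Jak1* was lower, at 301, 301 and 293 CPM in the controls and 206, 207 and 203 CPM in *Atgl* ECKO libraries. Its log2 fold change was -0.54 ± 0.03 (SE, adjusted p = 1.10e-10), and its controls were tight. The other kinase, *Tyk2*, was slightly lower and only just passed the test, from 24.8 ± 1.11 to 23.1 ± 0.290 CPM (SD, n = 3, log2 fold change -0.10, adjusted p = 0.0483).

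*Stat2* and *Irf9*, whose products form part of the complex that binds the ISRE, did not pass the test. *Stat2* was at 53.1, 70.7 and 71.4 CPM in the controls and 59.0, 57.2 and 60.1 CPM in *Atgl* ECKO libraries. Control replicate 1 was below and the other controls above every *Atgl* ECKO library, and the log2 fold change of -0.13 ± 0.08 (SE) did not pass the test (adjusted p = 0.143), whereas without control replicate 1 it was -0.27 (adjusted p = 4.86e-06). *Irf9* was at 36.0, 43.3 and 44.1 CPM in the controls and 41.1, 44.0 and 43.8 CPM in *Atgl* ECKO libraries, and apart from the low control replicate 1 the values overlapped (log2 fold change 0.07, 95% confidence interval -0.06 to 0.19). It lies on chromosome 14, with a chromosome median of 0.45, and relative to that median *Irf9* stood at -0.38 (adjusted p = 5.55e-05).

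Among the remaining IRF genes, *Irf7*, the amplifier of type I interferon production, was lower, *Irf3*, the constitutive factor that first induces *Ifnb1*, was higher, and *Irf1*, an interferon-γ-induced factor, did not pass the test. *Irf7* was at 13.4, 23.6 and 25.7 CPM in the controls and 12.5, 13.2 and 13.2 CPM in *Atgl* ECKO libraries. The groups only just did not overlap, because control replicate 1 sat next to the *Atgl* ECKO values, and the log2 fold change was -0.60 ± 0.15 (SE, adjusted p = 0.00235) with it, while it was -0.88 when that library was left out. *Irf3* was at 30.2, 31.1 and 30.0 CPM in the controls and 37.3, 36.1 and 34.8 CPM in *Atgl* ECKO libraries, with a log2 fold change of 0.24 ± 0.04 (SE, adjusted p = 5.18e-05). Its controls were nearly equal, and control replicate 1 was not the lowest of them. *Irf1* was at 16.6, 17.7 and 18.7 CPM against 18.4, 17.5 and 17.4 CPM (log2 fold change 0.01, 95% confidence interval -0.10 to 0.11).

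The sensors of double-stranded RNA were lower. *Ifih1*, which encodes MDA5, a sensor of long RNA duplexes, was at 28.5, 36.8 and 38.2 CPM in the controls and 20.3, 21.6 and 20.7 CPM in *Atgl* ECKO libraries. All controls lay above all *Atgl* ECKO libraries, and the log2 fold change was -0.69 ± 0.08 (SE, adjusted p = 1.03e-06). The chromosome 2 median was -0.23. *Ddx58*, which encodes RIG-I, a sensor of RNA ends, went from 121 ± 11.3 to 102 ± 1.03 CPM (SD, n = 3, log2 fold change -0.25, adjusted p = 4.01e-04). *Dhx58*, which encodes LGP2, a regulator of both sensors, was at 10.9, 16.3 and 18.5 CPM in the controls and 14.7, 15.8 and 15.0 CPM in *Atgl* ECKO libraries and did not pass the test (log2 fold change 0.03, 95% confidence interval -0.23 to 0.28). Here too control replicate 1 was on the other side of the *Atgl* ECKO libraries from its group, and without it the log2 fold change turned to -0.18 (adjusted p = 0.0128). *Zbp1*, a sensor of Z-form nucleic acids, averaged 1.32 CPM in the controls and 0.648 CPM in *Atgl* ECKO libraries, under the filter.

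Within the IFIT family, RNA-binding proteins that block translation of viral RNA, the members of 1 cluster on chromosome 19 went in opposite directions. *Ifit2* was at 4.62, 5.70 and 5.43 CPM in the controls and 11.4, 10.6 and 11.2 CPM in *Atgl* ECKO libraries. It was 211% of the control mean, with a log2 fold change of 0.95 ± 0.07 (SE, adjusted p = 5.02e-09), the largest increase among the tested members. *Ifit3* was at 7.49, 15.0 and 16.4 CPM in the controls and 7.21, 8.12 and 7.60 CPM in *Atgl* ECKO libraries. Control replicate 1 fell within the *Atgl* ECKO range while the other controls were well above it, and *Ifit3* was lower with a log2 fold change of -0.63 ± 0.18 (SE, adjusted p = 0.00542), or -0.95 without control replicate 1. *Ifit1* followed the same pattern at 8.60, 14.4 and 16.3 CPM against 9.10, 9.69 and 9.76 CPM, with control replicate 1 below every *Atgl* ECKO library. Its log2 fold change of -0.38 ± 0.14 (SE, adjusted p = 0.0274) was -0.63 without control replicate 1 (adjusted p = 4.81e-08). The call for *Ifit1* was lost when control replicate 2 (-0.29, adjusted p = 0.0894), control replicate 3 (-0.21, adjusted p = 0.152), or *Atgl* ECKO replicate 1 (adjusted p = 0.0534), 2 (adjusted p = 0.0534) or 3 (adjusted p = 0.0598) was left out. The median of chromosome 19 was 0.41, and reads shared between *Ifit3* and its near-identical copy *Ifit3b* were divided by estimation, so the level of each is uncertain.

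The OAS family was likewise divided. OAS proteins make oligoadenylates that activate RNase L, and the OAS-like proteins carry ubiquitin-like domains. *Oasl2* was at 34.4, 64.2 and 69.0 CPM in the controls and 23.1, 25.9 and 25.3 CPM in *Atgl* ECKO libraries. The groups did not overlap even with control replicate 1, and the log2 fold change was -1.08 ± 0.17 (SE, adjusted p = 3.09e-05), or -1.39 without that library. *Oasl1*, which in mouse restrains IRF7 translation, was at 11.8, 17.4 and 18.1 CPM in the controls and 22.9, 22.4 and 21.7 CPM in *Atgl* ECKO libraries. It was higher by a log2 fold change of 0.50 ± 0.10 (SE, adjusted p = 5.34e-04), and by 0.32 without control replicate 1. *Oas1a* went from 5.40 ± 1.50 to 7.56 ± 0.562 CPM (SD, n = 3, log2 fold change 0.45, adjusted p = 0.00506), and without control replicate 1 its log2 fold change was 0.24 (adjusted p = 0.00706). *Oas3* went the other way, from 1.98, 4.53 and 5.33 CPM in control to 1.61, 1.72 and 1.47 CPM in *Atgl* ECKO libraries, and fell by 0.86 on the log2 scale (adjusted p = 7.39e-04), or by 1.19 when control replicate 1 was left out. *Oas2* was listed at 0.114 to 0.408 CPM over all libraries, which leaves as few as 7 reads behind a value. The *Oas1* genes resemble each other in sequence, so their estimated levels are uncertain.

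**Figure D4:**
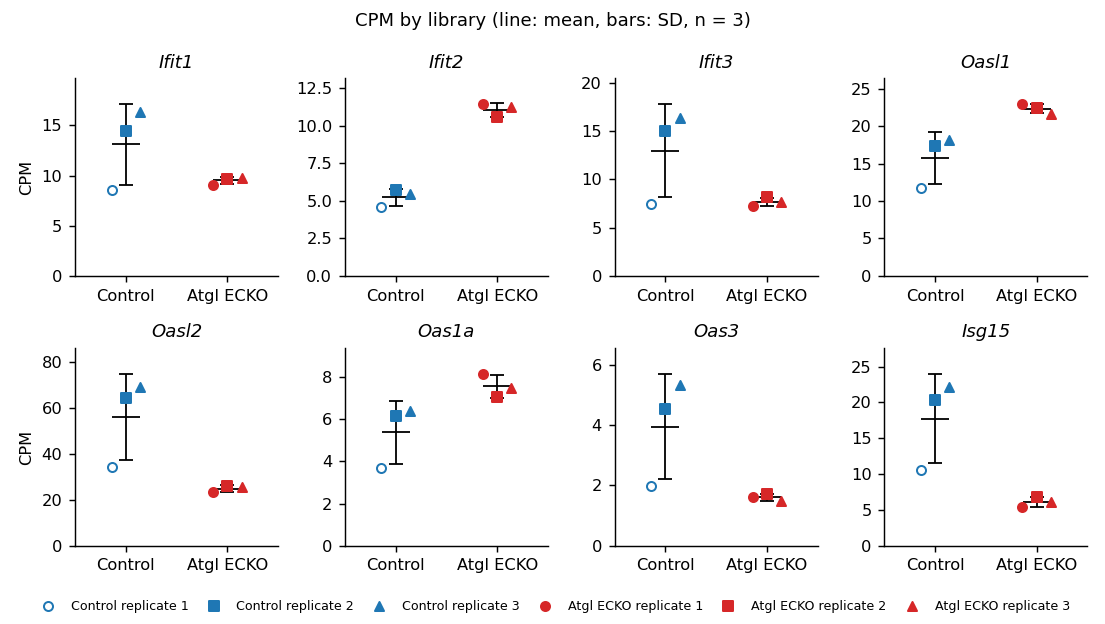
CPM in each library for members of the IFIT and OAS families and for Isg15; the horizontal line is the mean and the bars the SD of 3 libraries, and each vertical axis starts at 0. Ifit2, Oasl1 and Oas1a are higher and Ifit1, Ifit3, Oasl2, Oas3 and Isg15 lower in Atgl ECKO, while control replicate 1 (open circle) is the lowest control in all 8 panels.

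The large GTPases, which act on viral capsids and on membranes of intracellular pathogens, were lower where they could be tested. *Gbp3* was at 10.4, 17.7 and 18.4 CPM in the controls and 7.84, 8.49 and 7.09 CPM in *Atgl* ECKO libraries. The groups did not overlap, and the log2 fold change was -0.87 ± 0.14 (SE, adjusted p = 5.35e-05), or -1.12 without control replicate 1. *Gbp2* went from 10.1 ± 2.23 to 6.77 ± 0.480 CPM (SD, n = 3, log2 fold change -0.50, adjusted p = 7.68e-04). *Mx2* averaged 2.25 CPM in the controls and 1.61 CPM in *Atgl* ECKO libraries with overlapping values, and its log2 fold change of -0.30 (adjusted p = 0.0244) lost its call without control replicate 2 (adjusted p = 0.0890), control replicate 3 (adjusted p = 0.109), *Atgl* ECKO replicate 1 (adjusted p = 0.0684) or *Atgl* ECKO replicate 3 (adjusted p = 0.0861). *Mx1* was under 0.22 CPM throughout, resting on as few as 3 reads. GBP genes form a family of close copies, so reads may be shared among them.

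*Isg15*, a ubiquitin-like protein attached to target proteins, had the second largest decrease of the tested members. It was at 10.6, 20.4 and 22.2 CPM in the controls and 5.43, 6.81 and 6.10 CPM in *Atgl* ECKO libraries, or 34.4% of the control mean. Every control exceeded every *Atgl* ECKO library, and the log2 fold change was -1.34 ± 0.18 (SE, adjusted p = 5.29e-06), and -1.65 without control replicate 1. *Usp18*, the protease that removes ISG15 and damps IFNAR2, was at 12.7, 22.5 and 25.3 CPM in the controls and 11.2, 11.8 and 11.5 CPM in *Atgl* ECKO libraries. Control replicate 1 lay just above the *Atgl* ECKO values, and the log2 fold change was -0.70 ± 0.16 (SE, adjusted p = 9.19e-04), or -0.99 when that library was left out. *Trim25*, the ubiquitin ligase that activates RIG-I, showed a small decrease, with controls tighter than those of most members but not than the median gene, from 146 ± 6.75 to 120 ± 2.01 CPM (SD, n = 3, log2 fold change -0.28, adjusted p = 3.24e-06).

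The ADP-ribose enzymes *Parp9* and *Parp14* and the ubiquitin ligase *Dtx3l*, the partner of PARP9, did not pass the test. All of them lie on chromosome 16. *Parp9* was at 26.1, 32.9 and 35.9 CPM in the controls and 30.8, 32.4 and 31.6 CPM in *Atgl* ECKO libraries, with a log2 fold change of 0.01 that turned to -0.12 (adjusted p = 0.0349) without control replicate 1. *Parp14* was at 36.7, 57.9 and 55.5 CPM against 40.5, 42.6 and 44.0 CPM, with a log2 fold change of -0.21 (adjusted p = 0.109) that was -0.41 without control replicate 1 (adjusted p = 9.52e-08). *Dtx3l* showed a log2 fold change of 0.13 (adjusted p = 0.0747), which passed the test without control replicate 2 (0.19, adjusted p = 0.0117) or control replicate 3 (0.17, adjusted p = 0.0322) and was 0.03 without control replicate 1. For each of them the result thus turned on which control libraries were used.

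Of the 10 remaining effectors 7 were lower and 1 was higher, where 36.2% of all tested genes were lower and 34.2% higher, and with a robust prior 3 were lower and 0 higher. *Ifi44*, an interferon-induced cytoplasmic protein, had the largest decrease of the tested members. It was at 20.7, 39.6 and 41.8 CPM in the controls and 8.11, 9.66 and 8.76 CPM in *Atgl* ECKO libraries, which is 25.98% of the control mean. The groups were far apart, and the log2 fold change was -1.77 ± 0.17 (SE, adjusted p = 1.86e-07), and -2.09 without control replicate 1. *Eif2ak2*, which encodes the RNA-activated kinase PKR that halts translation, was at 140, 164 and 162 CPM in the controls and 98.7, 105 and 104 CPM in *Atgl* ECKO libraries. It had the highest control mean of the members, and its control CV of 8.43% was narrow beside most members but above the median of all genes. The groups did not overlap, with a log2 fold change of -0.59 ± 0.05 (SE, adjusted p = 2.49e-08). *Rtp4*, a receptor transporter protein, was at 21.7, 37.9 and 37.1 CPM in the controls and 16.2, 18.8 and 19.3 CPM in *Atgl* ECKO libraries (log2 fold change -0.76 ± 0.14 SE, adjusted p = 1.94e-04). *Xaf1*, a promoter of apoptosis, was at 11.1, 18.3 and 17.8 CPM against 8.60, 9.71 and 10.4 CPM (log2 fold change -0.63 ± 0.13 SE, adjusted p = 3.88e-04). In both genes control replicate 1 lay between the other controls and the *Atgl* ECKO libraries, and without it the log2 fold changes were -1.02 for *Rtp4* and -0.85 for *Xaf1*.

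The smaller decreases were those of *Samhd1*, a nucleotide hydrolase that starves retroviruses, *Bst2*, the tetherin that holds virions at the membrane, and *Ifi35*, an interferon-induced leucine zipper protein. *Samhd1* went from 57.5 ± 3.79 to 46.3 ± 0.783 CPM (SD, n = 3, log2 fold change -0.30, adjusted p = 1.19e-05), and relative to the median of chromosome 2 it was -0.07 (adjusted p = 0.137), so its call was lost. *Bst2* went from 86.6 ± 14.1 to 70.4 ± 3.98 CPM (SD, n = 3, log2 fold change -0.28, adjusted p = 0.00588), with control replicate 1 within the *Atgl* ECKO range, and its log2 fold change was -0.42 without it. *Ifi35* showed a log2 fold change of -0.26 (adjusted p = 0.0145), which lost its call without control replicate 3 (-0.14, adjusted p = 0.0833) or *Atgl* ECKO replicate 3 (-0.20, adjusted p = 0.0823), and relative to the median of its chromosome (-0.16, adjusted p = 0.110). *Lgals3bp*, a secreted galectin-binding glycoprotein, was higher, from 11.6 ± 2.55 to 14.5 ± 1.11 CPM (SD, n = 3, log2 fold change 0.32, adjusted p = 0.0160). That call was lost without control replicate 1 (0.14, adjusted p = 0.0588) or *Atgl* ECKO replicate 1 (0.26, adjusted p = 0.0524). *Rsad2*, which encodes viperin, a maker of a chain-terminating nucleotide, and its neighbour *Cmpk2*, a mitochondrial nucleotide kinase, did not pass the test on chromosome 12, whose median was 0.36. *Rsad2* was at 17.3, 24.8 and 31.5 CPM in the controls and 25.2, 28.1 and 24.8 CPM in *Atgl* ECKO libraries (log2 fold change 0.12, 95% confidence interval -0.17 to 0.40), and passed the test only without control replicate 3 (0.31, adjusted p = 0.0101) among the 6 libraries left out in turn. *Cmpk2* stood at a log2 fold change of -0.17 (adjusted p = 0.198), which became -0.36 once control replicate 1 was left out (adjusted p = 1.52e-04).

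Leaving out control replicate 1 gave 25 lower and 6 higher members, with 34.2% of all genes lower and 32.7% higher in that fit. All 20 members that were lower with it remained lower, *Cmpk2*, *Dhx58*, *Parp14*, *Parp9* and *Stat2* were added, and *Lgals3bp* lost its call. Control replicate 1 was the lowest control for every one of these members, so a move in this direction was fixed by leaving it out. The median log2 fold change of the members was then -0.37. A prior that gives less weight to genes of unusual variance in setting the common spread (robust limma) called 4 higher and 10 lower members, while the share of all genes called stayed at 34.3% higher and 36.2% lower. *Bst2*, *Gbp2*, *Ifi35*, *Ifit1*, *Ifit3*, *Irf7*, *Lgals3bp*, *Oas1a*, *Oas3*, *Oasl1*, *Rtp4*, *Usp18* and *Xaf1* lost their calls there. Without any moderation of the variances 3 members were higher and 8 lower, and *Ddx58*, *Ifnar1* and *Mx2* lost their calls as well. Calls that held in the fit and in all 17 alternatives were those for *Eif2ak2*, *Gbp3*, *Ifi44*, *Ifih1*, *Isg15*, *Oasl2* and *Trim25*, which were lower, and for *Ifit2*, *Ifnar2* and *Irf3*, which were higher.

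**Figure D5:**
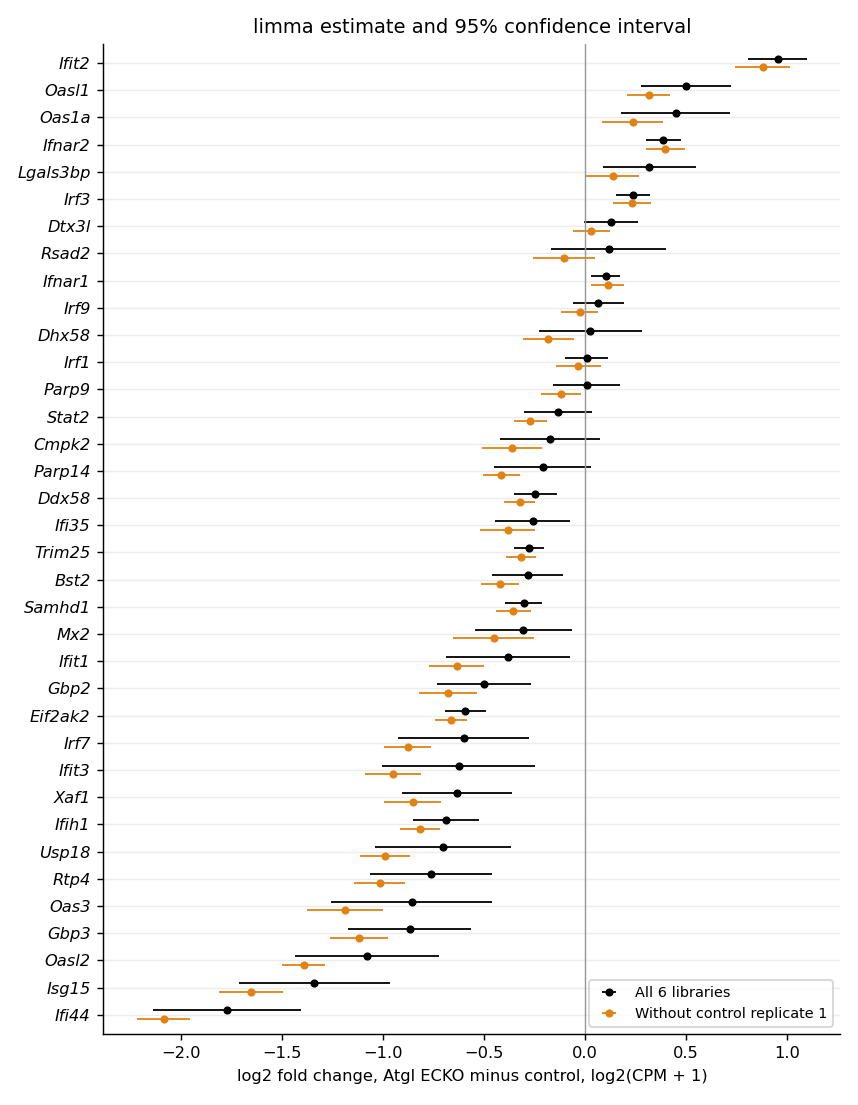
Log2 fold change (Atgl ECKO minus control, on log2(CPM + 1)) of the 36 tested members with its 95% confidence interval, from all 6 libraries (black) and without control replicate 1 (orange). Without it the intervals narrow for most members and the lower members move further left, from -1.77 to -2.09 for Ifi44, while Ifnar1, Ifnar2 and Irf3 hardly move.

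Of 95 further genes of the pathway, 91 had a value and 82 were tested, of which 55 were lower and 14 higher (median log2 fold change -0.32), where 36.2% of all tested genes were lower and 34.2% higher. Further interferon-stimulated genes made up most of these, with 45 of 58 lower (77.6%) and 4 higher (6.90%, median -0.45), and control replicate 1 was the lowest control for 54 of the 58. These lists, like the members, were chosen with earlier results of the same data known, so their shares are no independent support for those of the members. The largest changes were those of *Slfn8* (9.19 ± 1.04 to 0.467 ± 0.117 CPM), *Iigp1* (19.1 ± 4.41 to 3.38 ± 0.476 CPM), *Gbp4* (15.7 ± 2.97 to 4.02 ± 0.920 CPM), *Gbp6* (12.0 ± 2.54 to 3.06 ± 0.670 CPM) and *Ifi205* (12.1 ± 2.05 to 3.10 ± 0.184 CPM, SD, n = 3 each). Their log2 fold changes were -2.79, -2.17, -1.74, -1.66 and -1.66, larger than those of most members, and control replicate 1 stayed above the *Atgl* ECKO libraries in each. Without control replicate 1, 48 of the 58 were lower (82.8%) and 3 higher (5.17%), against 34.2% and 32.7% of all genes in that fit. With the robust prior 39 of the 58 were lower and 3 higher.

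Among genes that act before interferon, 6 of 13 tested genes of sensing were lower (46.2%) and 4 higher (30.8%), near the shares of all tested genes (36.2% and 34.2%). They included *Tnfaip3*, a ubiquitin-editing inhibitor of NF-κB (25.7 ± 1.80 to 57.9 ± 1.83 CPM, log2 fold change 1.14), *Cyld*, a deubiquitinase (0.48), *Ikbke*, a kinase of IRF3 (-0.52), *Mb21d1*, which encodes the DNA sensor cGAS (-0.37), and *Traf3*, an adaptor (0.35). Of 11 tested receptor, kinase and feedback genes, 6 were higher (54.5%) and 4 lower (36.4%), among them *Socs3*, a feedback inhibitor of JAK kinases (9.54 ± 0.493 to 15.8 ± 0.719 CPM, log2 fold change 0.67). *Ifnb1*, the interferon gene listed, was at 0.0580, 0.144 and 0.136 CPM in the controls and 0.0318, 0.0649 and 0.0001 CPM in *Atgl* ECKO libraries, where 0.0001 CPM is the offset that stands for no reads, so its level could not be compared at this depth. The further interferon genes on the list, *Ifna4*, *Ifnk* and *Ifnz*, were among the listed genes that had no value.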

How the data were processed

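RNA-Seq values came from 6 libraries, 3 for each genotype, grouped by the genotype in the labels. Following the methods of the study, the authors ran STAR for alignment and Partek E/M for gene values, which divides shared reads by estimation, and deposited gene values normalized as CPM. Tool versions were not stated, and the build named is the human hg19 although the gene symbols are those of mouse. The labels and the methods name a small RNA library kit, and the methods also name removal of rRNA. Each value includes an offset of 0.0001 CPM. Low values were not whole multiples of 1 read often enough to recover counts, so no count test was used. The deposited z-scores were not used. Of 20430 rows, 21 carried dates in place of symbols and were left out. The values in the table sum to 816084 to 821589 CPM for each library.

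Genotypes were compared with limma 3.58.1 in R 4.3.3 (lmFit, eBayes with a trend) on log2(CPM + 1), with a pseudocount of 1 CPM that understates the changes of low genes, for genes averaging 1 CPM or more, with Benjamini-Hochberg adjustment across all of them (adjusted p under 0.05). Intervals are at the 95% level. The script was tested on simulated data. Alternatives were other pseudocounts, filters and scalings, other treatment of the gene variances, a block for the replicate number, chromosome medians removed (genes of at least 5 CPM), and each library left out. All members could be named. Per-library values are given for receptor, STAT and IRF genes and for members of at least 5 CPM with a log2 fold change beyond 0.5 or -0.5, and for others where a result turns on single libraries. From each list of other pathway genes at most 5 with the largest changes were named, plus *Jak1*, *Tyk2* and interferon genes, and 1 further gene that the rule names is not reported here. The members and lists were chosen with earlier results of these data known.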

Additional observations from a re-analysis of the deposited data

How the results depend on the processing

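The fit in the report counted 7 members higher and 20 lower. A robust prior gave 4 and 10, and no moderation of the variances gave 3 and 8. The shares of all genes called were 34.3% and 36.2% with the robust prior, and 30.5% and 31.7% without moderation. Leaving out each library in turn gave 5 to 9 higher and 17 to 25 lower members. All other alternatives kept both counts within 1.5 times of those in the report. With the replicate number as a block (replicate block) 8 members were higher and 22 lower. Same-numbered libraries had correlations of their deviations of 0.09, 0.09 and -0.15, inside the range of differently numbered pairs (-0.30 to 0.23). The labels do not say what the number stands for, and these values cannot settle whether same-numbered libraries share a preparation. With chromosome medians removed, the log2 fold change turned to -0.16 for *Ifnar1*, -0.38 for *Irf9* and -0.25 for *Parp9*. That setting also added lower calls for *Cmpk2*, *Parp14* and *Stat2*, and the block added *Parp14* and *Stat2* as lower and *Dtx3l* as higher. Calls were lost for *Ifit1* with no filter or median ratios, for *Mx2* with quantile normalization, and for both with *Ifi35* and *Lgals3bp* without the trend. With no filter *Mx1* and *Zbp1* were also called lower, giving 21 lower of 39 members, where 25.4% of all genes were lower. Over the libraries left out in turn, *Dhx58* ranged from -0.18 (without control replicate 1) to 0.17 and *Parp9* from -0.12 (without control replicate 1) to 0.10. The cause was not tested. Depth limits *Mx1*, *Oas2* and *Ifnb1*, whose values rest on few reads.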

Other observations

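Of the 100 genes with the widest control CV, 54 were on neither interferon list, and control replicate 1 was the lowest control for 33 of these. These 33 were a mixed set and count *Xlr* by the tie given above. They included *Igfbp5* (118, 150 and 259 CPM in control replicates 1, 2 and 3), *Agrn* (67.3, 86.8 and 90.3 CPM) and *Tpm2* (8.52, 10.9 and 11.3 CPM). The genes named next were chosen after their values were seen and do not stand for the 33. *Gvin1*, which encodes an interferon-induced very large GTPase, was at 272, 390 and 368 CPM in the controls and 187, 220 and 245 CPM in *Atgl* ECKO libraries. *H2-T23*, a nonclassical MHC class I gene, was at 12.1, 16.1 and 17.9 CPM against 8.42, 7.67 and 6.39 CPM, and *Ifi211*, a member of the Ifi200 family, at 20.6, 28.6 and 30.6 CPM against 15.5, 15.8 and 14.8 CPM. In these genes control replicate 1 lay between the other controls and the *Atgl* ECKO libraries, as in *Rtp4* and *Xaf1*. *Apol9b* was at 3.76, 6.59 and 7.71 CPM in the controls and 5.87, 6.42 and 6.24 CPM in *Atgl* ECKO libraries, where control replicate 1 lay below the *Atgl* ECKO libraries and the other controls above them, as in *Stat2* and *Dhx58*.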
